A study of Mus musculus with 6 samples.

Results

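Neurod1 and 7 genes that act with it in the neuronal programme were followed in bulk RNA sequencing of mouse brain cortex after stroke. The genes were taken by symbol from a count table of 24421 genes: the transcription factors Neurod1, Neurod2, Neurod6, Neurog2, Nhlh2, Hes6 and Insm1, and the splicing factor Srrm4. All 8 had a row, and 6 of them were among the 14852 genes with enough counts to test. Neurog2 and Nhlh2 were not.

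All 6 samples came from C57BL/6 mice that had undergone middle cerebral artery occlusion (MCAO), which blocks the main artery of the cortex and models ischaemic stroke. In 3 samples the animals had received green fluorescent protein (GFP), the control, and in the other 3 they had received NeuroD1. Uninjured or untreated mice were not analysed here, so every value belongs to injured tissue. The series title names an intravenous gene therapy. The sources used here do not give the vector, its promoter, the cells it reached, the time after the stroke, or the animals' age and sex. The labels do not state that samples of a group came from different animals. The p-values therefore reflect only how far these samples scatter, and that scatter may be technical.

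Basic helix-loop-helix (bHLH) proneural factors bind DNA as pairs with E proteins at E-boxes, short sites of the form CANNTG, and switch on neuronal genes. Neurogenins act early in progenitors and NeuroD factors follow in young and mature neurons, so that in adult cortex Neurod2 and Neurod6 mark excitatory neurons. Id proteins block the pairing by capturing E proteins, and Notch signalling restrains the programme through Hes repressors. The study compared NeuroD1 with GFP in tissue whose injured region holds many reactive glia, cells in which forced NeuroD1 is used to induce neuronal features.

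The libraries held 7753101 to 9698795 counts with GFP and 10843273 to 13440244 with NeuroD1. All 10 markers of excitatory cortical neurons had counts in every group, with summed levels of 4856 to 7424 CPM with GFP and 2518 to 6418 CPM with NeuroD1 (CPM, counts per 1000000 of the TMM-scaled library size). NeuroD1 replicate 2 stood apart from the other libraries, with the lowest summed level of pan-neuronal markers (1799 CPM, against 2538 to 4968 in the other 5) and the highest of myeloid markers (10443 CPM, against 1594 to 6441). All 6 myeloid markers had counts, and their sum was 1594 to 3107 CPM with GFP and 3414 to 10443 CPM with NeuroD1, without overlap. Lyz2 had the highest mean level of the 6 (1637 CPM with GFP, 5015 CPM with NeuroD1). A log2 fold change above 0 was found for 5 of the 6. Aif1 went the other way, with a mean of 103.1 CPM with GFP and 70.3 CPM with NeuroD1, and its groups overlapped. The 5 oligodendrocyte markers summed to 9909 to 19856 CPM with GFP and 6120 to 8603 CPM with NeuroD1, also without overlap. The 5 markers of cycling cells summed to 109.1 to 135.0 CPM with GFP and 185.2 to 642.8 CPM with NeuroD1, without overlap. DESeq2 called 4 of these 5 and 3 of the 6 myeloid markers higher (background 5.07%). It called 2 of the 5 oligodendrocyte markers lower (background 3.93%). Over all genes, edgeR's quasi-likelihood test with Benjamini-Hochberg adjustment called 0 of 14852 (0.00%) at an adjusted p under 0.05, and 3564 (24.0%) had an unadjusted p under 0.05. DESeq2 called 1374 of 15276 genes (8.99%) at its own adjusted p under 0.05.

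The stretches before the transcription start are shown because E-boxes are the sites that NeuroD factors bind, and they show where those letters lie in 5 of the genes. They are from the RefSeq promoter table on GRCm38.p6, which 7 of the 8 genes matched, all but Insm1, and were searched over the 250 bases before the listed start, on both strands. Capitals mark CANNTG, a form that includes CAGATG and CAGCTG, and bases inside annotated exons are not printed.

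Neurod1, chr2:79456786-79456886, minus strand: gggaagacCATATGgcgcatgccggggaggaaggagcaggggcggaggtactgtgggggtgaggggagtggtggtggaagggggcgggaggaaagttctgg

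Neurod2, chr11:98329649-98329895, minus strand: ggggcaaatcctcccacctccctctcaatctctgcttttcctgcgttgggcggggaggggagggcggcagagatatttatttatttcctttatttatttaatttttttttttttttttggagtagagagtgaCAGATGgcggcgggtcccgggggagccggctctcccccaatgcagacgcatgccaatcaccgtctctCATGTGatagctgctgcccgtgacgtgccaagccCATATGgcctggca

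Neurod6, chr6:55681264-55681513, minus strand: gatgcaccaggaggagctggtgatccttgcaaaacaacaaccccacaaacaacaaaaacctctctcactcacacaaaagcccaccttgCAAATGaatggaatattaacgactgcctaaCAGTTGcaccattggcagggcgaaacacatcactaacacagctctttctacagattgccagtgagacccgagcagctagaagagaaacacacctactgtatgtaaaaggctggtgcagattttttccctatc

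Hes6, chr1:91414039-91414288, minus strand: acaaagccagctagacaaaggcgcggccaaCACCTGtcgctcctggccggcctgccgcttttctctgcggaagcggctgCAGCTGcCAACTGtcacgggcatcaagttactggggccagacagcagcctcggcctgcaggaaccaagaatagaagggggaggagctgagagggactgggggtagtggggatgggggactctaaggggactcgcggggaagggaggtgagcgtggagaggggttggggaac

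Srrm4, chr5:116591818-116592067, minus strand: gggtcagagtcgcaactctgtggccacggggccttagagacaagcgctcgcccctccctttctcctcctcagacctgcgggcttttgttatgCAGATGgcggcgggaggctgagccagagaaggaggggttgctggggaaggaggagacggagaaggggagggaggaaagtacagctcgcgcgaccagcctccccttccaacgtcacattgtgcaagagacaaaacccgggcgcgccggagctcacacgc

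The letters CAGATG were present in the windows of Neurod2, Srrm4 and Nhlh2. Such a match is common, since 3913 of 27025 promoters in the table (14.5%) held it. For CAGCTG the share was 12.8%. For the general form CANNTG the share was 66.0% of the promoters. CAGCTG was present before both listed starts of Hes6. The windows of Neurod1, Neurod6 and Neurog2 held neither, and that of Neurog2 held no CANNTG. The CAGATG of Neurod2 and of Srrm4 stood at the start of the same 14 letters, CAGATGGCGGCGGG, beginning 118 and 158 bases before the start. This run was looked for after the sequences were seen, and 2 of 27025 promoters held it, these included. A match describes letters and not binding. For Hes6 the first listed start is printed.

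Neurod1, the delivered gene, was the only one of the 8 whose level was higher in every NeuroD1 library than in every GFP library. It encodes a bHLH activator that drives neuronal differentiation and that is also used by endocrine cells (chromosome 2, 79452521 to 79456751, minus strand, protein coding, GRCm38, 2 annotated exon blocks). It stood at 6.48, 3.87 and 5.43 CPM in GFP replicates 1, 2 and 3. In the NeuroD1 replicates it stood at 48.5, 14.6 and 38.4 CPM, from 644, 151 and 428 counts. The groups did not overlap, and the lowest NeuroD1 library still lay above the highest GFP library, with counting intervals (95%, exact Poisson) of 12.4 to 17.1 and 4.99 to 8.28 CPM. Such intervals cover counting error only.

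The mean level of Neurod1 was 33.8 ± 17.4 CPM with NeuroD1 and 5.26 ± 1.31 CPM with GFP (SD, n = 3 each). The fitted log2 fold change was 2.68 (SE 0.45), or 6.39-fold, with a 95% interval of 3.14-fold to 13.0-fold. Its unadjusted p of 0.000279 was the 16th smallest of the 14852 genes, and its edgeR adjusted p was 0.136, so it did not pass. The adjusted p was 1.08e-05 with DESeq2. By edgeR it was 0.0421 without NeuroD1 replicate 2, the library lowest in Neurod1 of its group, where the fold was 8.22. DESeq2 without that library, a fit added after the data were seen, gave 2.33e-16. Over the other alternatives the adjusted p lay between 1.08e-05 and 0.412. In all, 26 tested genes had a log2 fold change as large as that of Neurod1, itself included. Counting by gene symbol does not tell transcripts of the delivered Neurod1 from those of the endogenous one. Cerkl overlaps an exon of Neurod1 on the same strand, and it held 0.401 to 1.42 CPM over the 6 libraries, with groups that overlapped. The antisense gene Gm26755 also overlaps an exon of Neurod1 and has no value here. The strand setting of the counting is not given, so its reads cannot be told apart from those of Neurod1.

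**Figure D1:**
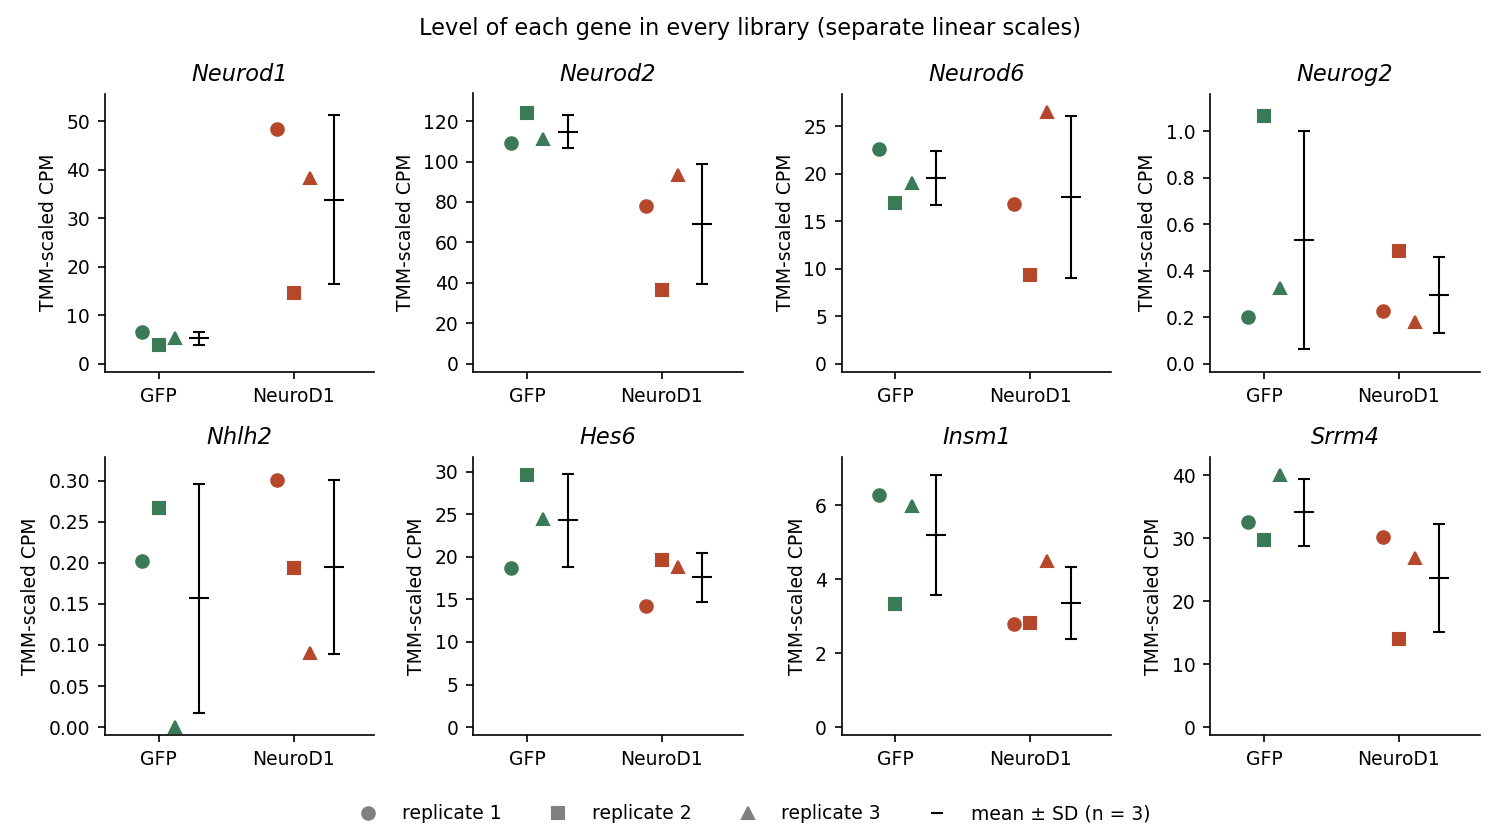
Level of each of the 8 genes (TMM-scaled CPM, linear axes that differ between panels) in the 3 GFP and 3 NeuroD1 libraries, with symbols for replicates and mean ± SD beside them. Neurod1 lies at 14.6 to 48.5 CPM with NeuroD1 and 3.87 to 6.48 CPM with GFP, while Neurod2 lies lower in all 3 NeuroD1 libraries than in any GFP library.

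Neurod2 and Neurod6, the NeuroD factors of mature excitatory cortical neurons, were not higher with NeuroD1 as Neurod1 was. Neurod2 (chromosome 11, 98325415 to 98329648, minus strand) stood at 109.4, 124.1 and 111.0 CPM in the GFP replicates. It stood at 78.0, 36.3 and 93.4 CPM in the NeuroD1 replicates, below every GFP library in 3 of 3. Its fitted level was 1.66-fold lower with NeuroD1 (log2 fold change -0.73, SE 0.33, unadjusted p = 0.0543, adjusted p = 0.215 by edgeR), so it did not pass either threshold. Without NeuroD1 replicate 2 it was 1.33-fold lower.

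Neurod6 (chromosome 6, 55677822 to 55681263, minus strand) stood at 22.6, 16.96 and 19.02 CPM with GFP and at 16.8, 9.39 and 26.5 CPM with NeuroD1. The groups overlapped, since NeuroD1 held both the highest and the lowest library. The log2 fold change was -0.15 (SE 0.36, edgeR adjusted p = 0.812) and turned to 0.15 without NeuroD1 replicate 2. In that library Neurod1, Neurod2, Neurod6 and Srrm4 were each at the lowest level of their group, as were the pan-neuronal markers, while the myeloid markers were at their highest. The part of either in these values was not tested.

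Neurog2, a neurogenin that starts neuronal commitment in cortical progenitors, was close to the limit of detection (chromosome 3, 127633135 to 127635631, plus strand). It had 2, 8 and 3 counts in the GFP replicates and 3, 5 and 2 in the NeuroD1 replicates. Summed over a group this was 13 counts with GFP and 10 with NeuroD1, a ratio of 0.588 per scaled count with a 95% Poisson interval of 0.231 to 1.45. Nhlh2, a bHLH factor of differentiating and hypothalamic neurons (chromosome 3, 102010076 to 102015492, plus strand), had 2, 2 and 0 counts with GFP and 4, 2 and 1 with NeuroD1. Its ratio was 1.34 (0.340 to 6.23), and the count of 0 allows up to 0.326 CPM in that library. Neither gene entered the test, and differences within these intervals were not detectable at this depth.

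Hes6, a Hes family protein that promotes neuronal differentiation by opposing Hes1 (chromosome 1, 91411483 to 91414038, minus strand), stood at 18.7, 29.7 and 24.4 CPM with GFP. With NeuroD1 it stood at 14.2, 19.6 and 18.8 CPM, and the groups overlapped through GFP replicate 1. It was 1.38-fold lower in the fit (log2 fold change -0.47, SE 0.25, edgeR adjusted p = 0.280). Insm1, a zinc finger factor that lets progenitors leave the cycle and that NeuroD1 can activate in endocrine cells (chromosome 2, 146221921 to 146225020, plus strand), was low throughout. It stood at 6.28, 3.34 and 5.98 CPM with GFP and at 2.79, 2.81 and 4.49 CPM with NeuroD1, with 25 to 62 counts a library. Its groups also overlapped, with a log2 fold change of -0.63 (SE 0.38, edgeR adjusted p = 0.323).

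Srrm4, which controls the inclusion of neuronal microexons (chromosome 5, 116439275 to 116591817, minus strand), stood at 32.5, 29.8 and 39.99 CPM with GFP. With NeuroD1 it stood at 30.3, 14.0 and 26.8 CPM, and replicate 1 lay within the GFP range. The log2 fold change was -0.52 (SE 0.30, edgeR adjusted p = 0.310), and -0.25 without NeuroD1 replicate 2. The antisense gene Srrm4os overlaps its exons and held 0.151 to 1.22 CPM. The strand setting of the counting is not given, so reads of the antisense partner cannot be told apart from those of Srrm4.

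Read together, 0 of the 6 tested genes passed the adjusted threshold of edgeR, and 1 of 6, Neurod1, had an unadjusted p under 0.05 (background 24.0%). DESeq2 called Neurod1 alone of the 8, against 5.07% of genes called higher. As Neurod1 was the delivered gene, its calls are no result about the other genes. The groups did not overlap for Neurod1 in the higher direction (background 14.2%) and for Neurod2 in the lower (background 15.3%), 2 of 6 against 29.6% of genes in either direction. The remaining 5 tested genes all had a fitted log2 fold change below 0, as did 48.3% of all tested genes. Their 95% intervals, not adjusted for several genes, reached upward to at most 1.58-fold, in Neurod6, and downward to 0.354-fold, in Insm1. A p that misses the threshold does not show that these levels were equal.

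**Figure D2:**
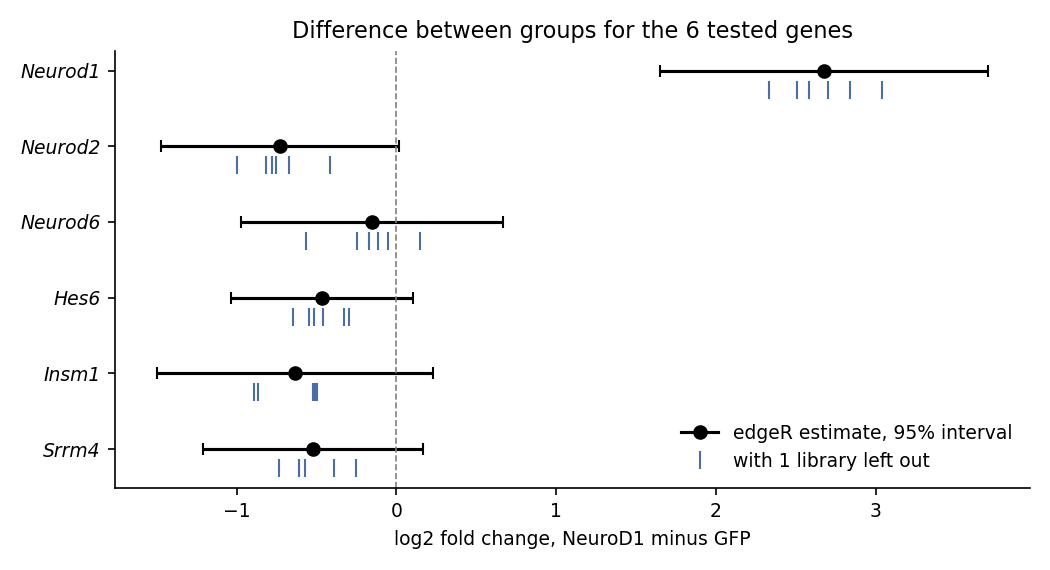
Log2 fold change (NeuroD1 minus GFP, edgeR) of the 6 tested genes with 95% intervals as black bars, and the estimates with 1 library left out as blue ticks. The Neurod1 interval lies at 1.65 to 3.70, while the other 5 intervals include 0 and only the Neurod6 ticks fall on both sides of it.

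Per length of annotated exon, Neurod1 held place 5 among the 8 genes with GFP and place 2 by its mean with NeuroD1. With GFP the levels were 36.5 ± 2.56 CPM per kb for Neurod2, 13.4 ± 3.02 for Hes6, 9.08 ± 1.32 for Neurod6 and 3.93 ± 0.609 for Srrm4. Below them came Neurod1 at 1.93 ± 0.481 CPM per kb, Insm1 at 1.68 ± 0.522, Neurog2 at 0.239 ± 0.210 and Nhlh2 at 0.0289 ± 0.0257 (SD, n = 3). The ranges of Hes6 and Neurod6 overlapped, as did those of Neurod1 and Insm1, and the other neighbours in this order did not.

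With NeuroD1 the order was Neurod2 at 22.0 ± 9.41 CPM per kb, Neurod1 at 12.4 ± 6.38, Hes6 at 9.72 ± 1.62, Neurod6 at 8.16 ± 3.99, Srrm4 at 2.73 ± 0.987 and Insm1 at 1.08 ± 0.315. Neurog2 (0.133 ± 0.0736) and Nhlh2 (0.0360 ± 0.0195) stayed last. The ranges of the first 4 overlapped from neighbour to neighbour. Even so, Neurod2 lay above Neurod1 in 3 of 3 NeuroD1 libraries, and Neurod1 lay above Hes6 in 2 of 3, the exception being replicate 2. This order divides Neurod1 by its annotated exons (2.729 kb). The length of the delivered transcript is not given, and another length would move the Neurod1 level and could change its place.

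Ratios within a library, which no scaling can move, set Neurod1 against neuronal genes of the same tissue. Neurod1 gave 0.0593, 0.0312 and 0.0489 counts per Neurod2 count in the GFP replicates. In the NeuroD1 replicates it gave 0.622, 0.403 and 0.411, so replicate 2, with the fewest Neurod1 counts, was close to replicate 3. The ratio was 10.4-fold higher with NeuroD1 (log2 difference 3.38), and the lowest NeuroD1 library lay 6.80-fold above the highest GFP library. Neurod2 was itself lower in the NeuroD1 libraries, so this fold holds both differences.

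Against Neurod6 the Neurod1 ratio was 0.287, 0.228 and 0.286 with GFP and 2.89, 1.56 and 1.45 with NeuroD1, 7.04-fold higher. Per 1000 counts of 7 pan-neuronal markers there were 1.38, 1.53 and 1.49 Neurod1 counts with GFP and 11.7, 8.12 and 7.73 with NeuroD1, 6.16-fold higher. On this scale the highest NeuroD1 library was 1.51-fold above the lowest, and the highest GFP library 1.11-fold. In bulk samples, fewer cells of a type and less RNA per cell cannot be told apart.

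Neurod2 was lower relative to the pan-neuronal markers too. It gave 23.3, 48.9 and 30.4 counts per 1000 with GFP and 18.8, 20.2 and 18.8 with NeuroD1, 1.69-fold lower, and the groups did not overlap. Relative to excitatory markers the Neurod2 groups overlapped (14.7 to 25.6 with GFP, 14.4 to 18.5 with NeuroD1). Neurod6 per 1000 excitatory marker counts was 3.04, 3.49 and 3.58 with GFP and 3.98, 3.73 and 4.13 with NeuroD1, 1.17-fold higher without overlap, while per 1000 pan-neuronal counts its groups overlapped. Ratios of Srrm4, Hes6 and Insm1 overlapped on both scales. The groups of 6 of the 14 ratios computed did not overlap. These 6 included every ratio of Neurod1, the delivered gene, and those ratios share its difference. The rest were Neurod2 to pan-neuronal markers and Neurod6 to excitatory markers. Each of the 6 had a two-sided exact permutation p of 0.1 (0.233 after adjustment over the 14), the smallest that 3 against 3 can give. The marker denominators were added after the data were seen.

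**Figure D3:**
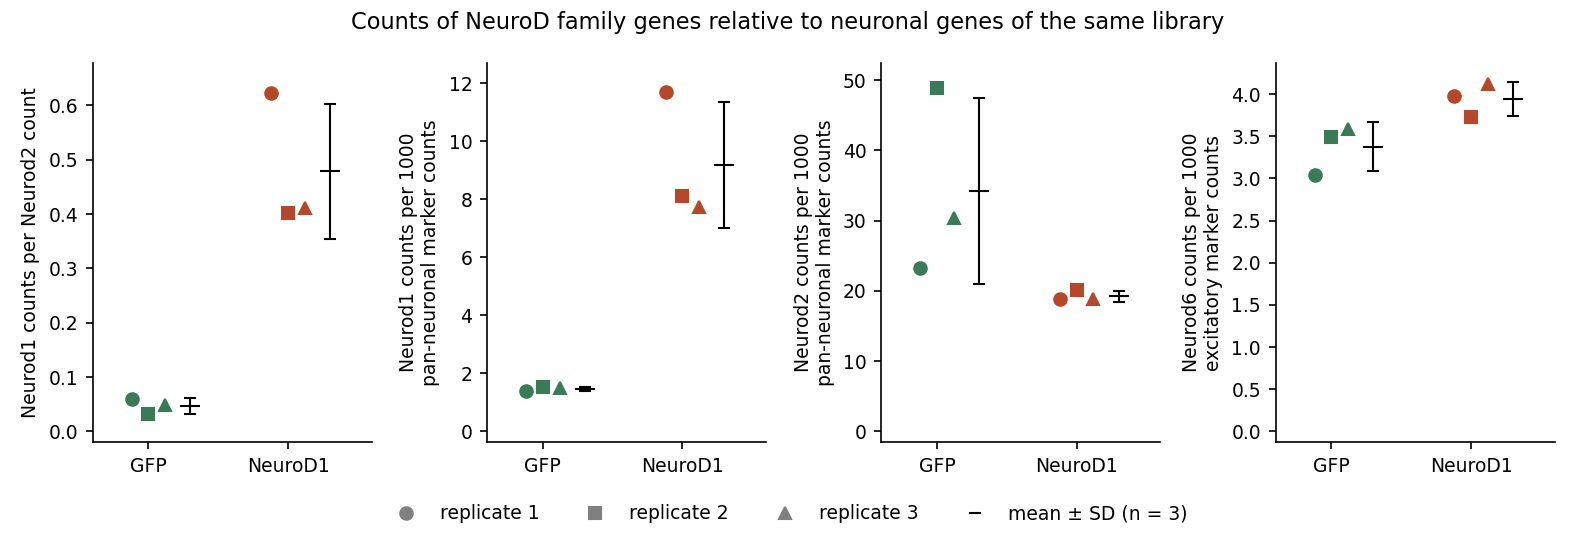
Counts of Neurod1, Neurod2 and Neurod6 relative to another gene or marker list of the same library (linear axes), for 3 GFP and 3 NeuroD1 libraries with mean ± SD beside them. The Neurod1 to Neurod2 ratio is 0.403 to 0.622 with NeuroD1 and 0.0312 to 0.0593 with GFP, and Neurod2 per 1000 pan-neuronal counts is 18.8 to 20.2 with NeuroD1 and 23.3 to 48.9 with GFP.

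Partners and inhibitors of the proneural factors were described over 6 lists, in which 0 genes passed the edgeR threshold in either direction. DESeq2 called 1 of the 45 it tested higher and 4 lower, against 5.07% and 3.93% of all genes. The Id inhibitors had the lowest list median, a log2 fold change of -0.71 against 0.02 for all tested genes, with 3 of 4 members at an unadjusted p under 0.05 and lower (background 11.5%). Id1 stood at 40.1, 48.9 and 38.9 CPM with GFP and at 24.2, 24.97 and 24.4 CPM with NeuroD1, 1.74-fold lower (log2 fold change -0.80, SE 0.19, adjusted p = 0.136 by edgeR and 0.0107 by DESeq2). Id3 was 1.61-fold lower, at 68.6 ± 4.03 against 110.3 ± 11.7 CPM (SD, n = 3; adjusted p = 0.138 by edgeR and 0.0227 by DESeq2). Without NeuroD1 replicate 2, DESeq2 still called Id1 but not Id3 (adjusted p = 0.0678), whose DESeq2 log2 fold change was then -0.62, against -0.67 with all libraries. Both are also made by blood vessel cells, and the summed level of 6 endothelial markers, a list added after the data were seen, was 161.5 to 285.3 CPM with NeuroD1 and 353.8 to 526.9 CPM with GFP. The 7 astrocyte markers summed to 5453 to 10077 CPM with NeuroD1 and 9254 to 15399 CPM with GFP, with overlap. Their median log2 fold change was -0.39 with 6 of 7 below 0 (background 48.3%). DESeq2 called 2 of the 7 lower (background 3.93%), Aldoc (2.32-fold, adjusted p = 0.00288) and Gfap (1.91-fold, adjusted p = 0.0471). It called no other astrocyte marker, each being at a DESeq2 adjusted p of 0.381 or more. The part of either cell type in the Id and Hes5 values was not tested.

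Of the E proteins, the DNA-binding partners, Tcf12 stood at 92.2 ± 21.9 CPM with NeuroD1 and 60.6 ± 5.46 with GFP (edgeR adjusted p = 0.170), and Tcf3 at 48.4 ± 13.2 and 57.7 ± 9.38 CPM (adjusted p = 0.524). Their list median was -0.18. Notch effectors and ligands had a median of -0.20, with 0 of 9 called by either tool. Within it Hes5, a Notch-driven repressor of proneural genes, stood at 5.23 ± 1.08 CPM with NeuroD1 and 9.75 ± 1.98 with GFP, without overlap (edgeR adjusted p = 0.147). Dll3, a Notch ligand family gene of newborn neurons, stood at 1.25 ± 0.791 and 2.67 ± 0.875 CPM (adjusted p = 0.256).

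Among 9 other proneural bHLH factors, 2 had enough counts to test and 2 had no count in any library. Bhlhe22, a factor of cortical projection neurons, stood at 24.3 ± 10.4 CPM with NeuroD1 and 19.2 ± 7.27 with GFP, and the groups overlapped (edgeR adjusted p = 0.620).

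The list of REST complex and splicing genes held values on both sides of 0, with a median of -0.11 that was 0.02 without NeuroD1 replicate 2. By edgeR, 2 of 8 were higher and 2 lower at an unadjusted p under 0.05 (background 12.5% and 11.5%). DESeq2 called 1 of 8 higher and 1 lower (background 5.07% and 3.93%). Rcor1, a corepressor that works with REST to silence neuronal genes, stood at 11.04, 3.74 and 6.95 CPM with GFP and at 27.7, 26.4 and 18.2 CPM with NeuroD1. It was 3.30-fold higher without overlap (log2 fold change 1.72, SE 0.38, adjusted p = 0.136 by edgeR and 0.00238 by DESeq2). The summed myeloid markers were also higher in all 3 NeuroD1 libraries, and their part in this value was not tested. Srrm3, the paralogue of Srrm4 that shares its microexon targets, stood at 58.1, 86.2 and 92.6 CPM with GFP and at 25.9, 19.5 and 45.6 CPM with NeuroD1. It was 2.60-fold lower, also without overlap (log2 fold change -1.38, SE 0.34, adjusted p = 0.136 by edgeR and 0.0101 by DESeq2).

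Genes of neuronal commitment and immature neurons had a median of 0.19, which lay between -0.16 and 0.15 with a library left out and was lowest without NeuroD1 replicate 3. The list had 5 of 18 at an unadjusted p under 0.05 and lower (background 11.5%) and 0 higher (background 12.5%). DESeq2 called 1 of the 18, lower (background 3.93%). That gene was Igfbpl1, a marker of newborn neurons, at 2.03, 7.61 and 2.39 CPM with GFP and 0.452, 0.774 and 1.26 CPM with NeuroD1 (4.78-fold lower, adjusted p = 0.140 by edgeR and 0.0237 by DESeq2). It passed the filter on low counts only through the GFP group, where it was higher, and did not pass with a minimum count of 30, so its call gives the list no support. GFP replicate 2 decided its size, and without it the log2 fold change was -1.41 in place of -2.26. Without NeuroD1 replicate 2, DESeq2 did not call it (adjusted p = 0.0553), at a log2 fold change of -2.22. Gadd45g, a stress gene that proneural factors can induce, stood at 19.5 ± 3.41 CPM with NeuroD1 and 37.3 ± 17.5 with GFP (edgeR adjusted p = 0.168). GFP replicate 2 also held the highest summed level of dentate granule neuron markers (154.7 CPM, against 57.6 to 75.3 in the other 5), whose part in these values was not tested.

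**Figure D4:**
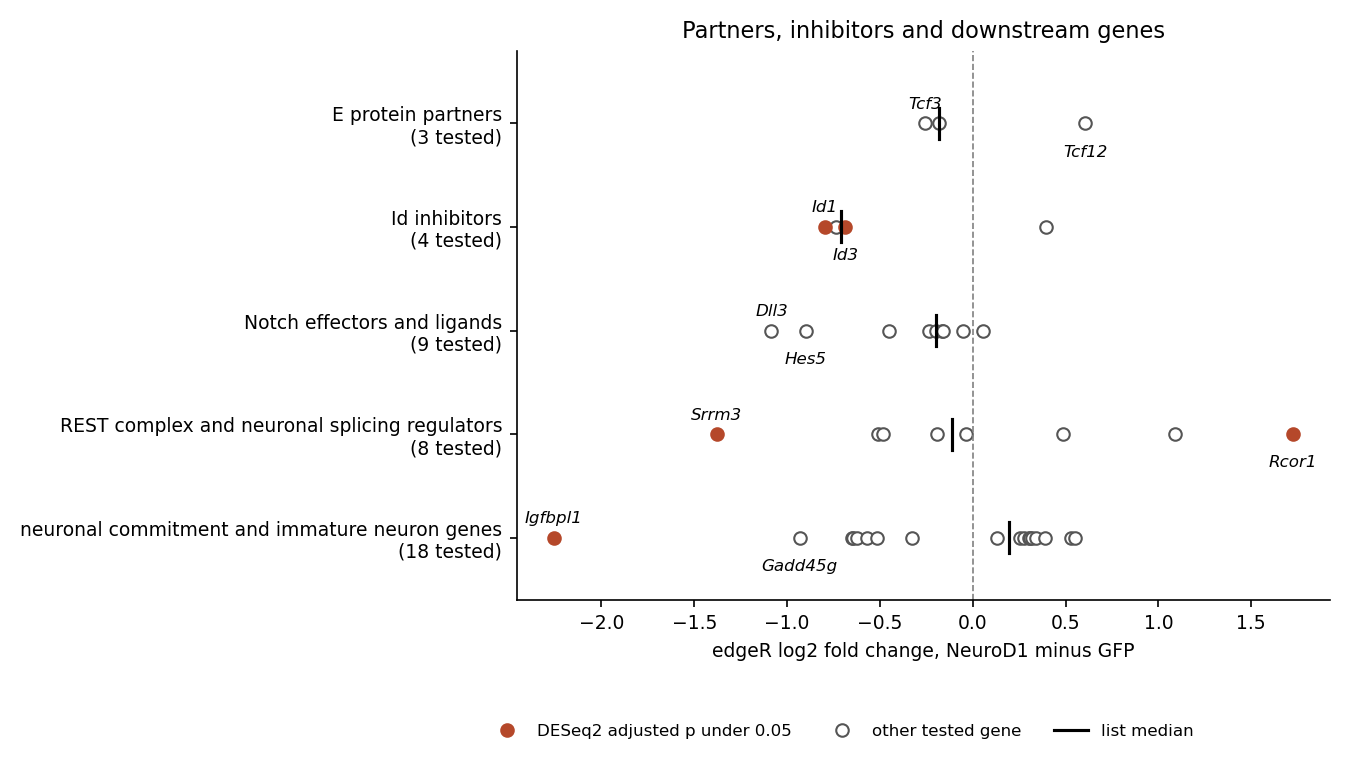
Log2 fold change (edgeR, NeuroD1 minus GFP) of every tested gene in 5 of the 6 lists, all but the other proneural bHLH factors, as points, with list medians as black bars and the genes named in the text labelled. Filled points are the 5 genes that DESeq2 called, Rcor1 higher and Id1, Id3, Srrm3 and Igfbpl1 lower, and 3 of the 4 Id genes lie below 0.

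The profile of Neurod1 over the 6 libraries was unlike that of the other 5 tested genes. By the root mean square difference of centred log2 CPM, Neurod2 and Srrm4 were the closest pair of the 6 genes (0.255), followed by Neurod6 and Srrm4 (0.331) and by Neurod2 and Neurod6 (0.352). Neurod1 was 1.43 from Neurod6, its nearest, and 1.71 from Neurod2. These distances take in the group difference of Neurod1 already given, so they add no separate support for it. Over the 14851 other tested genes, the nearest to Neurod1 were Sema3d, a secreted semaphorin (0.496), Slc9a7, a sodium-proton exchanger (0.508), Arsj, an arylsulfatase (0.515), Grap2, a T cell adaptor (0.529), and Tenm1, a teneurin (0.573).

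Grap2 stood at 0.506, 0.668 and 0.543 CPM with GFP and at 4.14, 3.10 and 3.50 CPM with NeuroD1. Grap2 and Arsj were low with GFP, at means of 0.572 and 0.592 CPM. Both passed the filter on low counts only through the NeuroD1 group, where they were higher, and neither passed with a minimum count of 30. The nearest genes were picked for their likeness to Neurod1, so their group differences give no separate support. Sema3d stood at 12.9, 5.48 and 7.17 CPM with GFP and at 45.9, 21.9 and 25.9 CPM with NeuroD1, with NeuroD1 replicate 2 the lowest of its group as for Neurod1. Likeness over 6 libraries is a description of these libraries only.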

How the data were processed

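Bulk RNA sequencing of 6 cortex samples was analysed from raw read counts per gene symbol, which the authors deposited and which, per the file headers, came from featureCounts with mm10 genes. Per the submitters' processing notes, HISAT2 2.0.1, DESeq2 1.16.1 and GRCm38 were used, in roles not stated there. Neither the strand setting nor the handling of multi-mapping reads is given in these sources. Columns were matched to samples by the description in the labels.

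Counts were tested in edgeR 4.0.16 (R 4.3.3; quasi-likelihood) after TMM scaling. The model held treatment alone, and genes were kept by filterByExpr (minimum count 10). Adjustment was by Benjamini-Hochberg over all 14852 genes tested, and an adjusted p under 0.05 passed. Each standard error was derived from the gene's F statistic. A count corresponded to 0.0753 to 0.134 CPM. Levels per kb used the union of GENCODE M21 exons. Likeness used log2 CPM with 0.1 added. Alternatives were DESeq2 1.42.0, limma-voom (limma 3.58.1), other scalings and filters, a replicate block and leaving out each library. The tests were tested on simulated data.

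The 8 genes, the gene lists and the tests were chosen with earlier results of these data known. The text names all 8 genes, the 2 genes with the smallest edgeR p in each of the 6 partner and target lists, and the 5 genes nearest to Neurod1, except 1 list gene that is not reported here. Other genes it names were chosen after their values were seen. They are the overlapping genes Cerkl and Srrm4os, the myeloid markers Lyz2 and Aif1, and the astrocyte markers Aldoc and Gfap. Gm26755, which has no value here, is named only for its overlap with Neurod1. Protein sequences were not used here. Pairs of libraries within a group differed by a chi-square of 33.8 to 126.3 per gene. The closest pair of all lay between the groups, GFP replicate 1 and NeuroD1 replicate 3, at 29.05. No library was treated as a duplicate.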

Additional observations from a re-analysis of the deposited data

How the results depend on the processing

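The count of genes past the threshold was 0 with edgeR under TMM, other scalings, filters and limma-voom, 1374 with DESeq2 and 479 with the replicate block. It lay between 0 and 1 with a library left out, and was 1003 with DESeq2 without NeuroD1 replicate 2, an alternative added after the data were seen. The gene past the threshold was Neurod1 in the edgeR fit without NeuroD1 replicate 2, and 1 of the 8 genes, Neurod1, also passed in both DESeq2 fits and with the block. Its log2 fold change was 2.71 with DESeq2, 2.58 with the block, and 2.33 to 3.04 with a library left out (3.06 with DESeq2). The Neurod6 value turned to 0.15 by edgeR and 0.16 by DESeq2 without NeuroD1 replicate 2, and lay between -0.57 and 0.15 with a library left out. The number of the 8 genes that were lower without overlap was 2 with upper quartile scaling and 1 to 3 with a library left out. In the partner and target lists 1 gene higher and 4 lower passed with DESeq2, 1 and 1 with the block, 0 and 0 by edgeR with a library left out, and 1 and 2 with DESeq2 without NeuroD1 replicate 2. With a library left out the median of the Notch list lay between -0.36 and -0.16, the first without NeuroD1 replicate 2, where DESeq2 gave -0.34. The medians of the REST and splicing list (-0.29 to 0.02), the neuronal commitment list (-0.16 to 0.15) and the other proneural factors (-0.13 to 0.05) took both signs with a library left out. By Pearson correlation 0 of the 5 genes nearest to Neurod1 were shared. By its longest transcript Srrm4 was at 4.56 CPM per kb with GFP. The cause of these changes was not tested. The replicate block rests on a shared number alone. Same-numbered samples deviated together with a correlation of 0.565, 0.386 and 0.0331 across genes, and GFP replicate 3 correlated best with NeuroD1 replicate 2 (0.137). Depth limits what Neurog2 and Nhlh2 can show.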
